A study of Mus musculus with 18 samples.

Results

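The 39 genes described here encode mRNAs known to be bound in mouse brain by FMRP, the RNA-binding protein made from Fmr1. They were taken by gene name from a table of 37310 mouse genes: 36 matched by symbol, and Map1a, Map1b and Map2, which the table lists under their older symbols, matched by gene ID. Binding was not measured in these samples. The genes were grouped under the heading of large mRNAs outside synaptic families, which does not hold for each of them: Bsn, Pclo and Unc13a encode proteins of the presynaptic active zone, and the coding sequence of Ncdn is 2187 nucleotides (nt) long. RNA was sequenced from cultured mouse cortical neurons of 2 genotypes: Fmr1 knockout (KO) and wild type (WT). The 4 groups of 3 libraries each were KO neurons in JQ1, WT neurons in JQ1, KO neurons in the vehicle DMSO and WT neurons in DMSO. All were grown in Neurobasal medium with B27, Glutamax and antibiotics, and were treated at 7 days in culture for 24 hours. The sources used here give neither the KO allele nor the strain, sex or number of animals behind a culture, so the p-values measure only the spread between these libraries. The 6 libraries treated with THZ1, an inhibitor of the kinase CDK7, were not analysed here.

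FMRP associates with the coding sequence of many long neuronal mRNAs and with ribosomes on them, and is best known as a brake on their translation; its loss causes fragile X syndrome in people. How much mRNA a cell holds is a separate quantity from how much of it is translated, and these libraries measure mRNA alone. JQ1 occupies the acetyl-lysine pockets of the BET proteins, readers of acetylated chromatin that promote transcription by RNA polymerase II. The products of the 39 genes act in several parts of the neuron: microtubule-associated proteins, ankyrins and spectraplakins shape the cytoskeleton, kinesins, dynein and myosin carry cargo along it, and active zone proteins prepare vesicles for release. Others are ubiquitin ligases, regulators of small GTPases, enzymes and channels of calcium and cyclic nucleotide signalling, the amyloid precursor protein with 2 of its receptors, and nuclear and autophagy proteins.

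The mRNAs had long coding sequences. Over the transcript of longest coding sequence of each gene in the GRCm38 annotation, their median mRNA length was 11495 nt against 3059 nt over 13833 tested genes, at the 98.6th percentile. Their median coding length was 7905 nt against 1431 nt, and it ran from 2187 nt in Ncdn to 23151 nt in Dst. AGGA and TGGA, letters that were reported as enriched at FMRP-bound sites in a human cell line, had a median density of 16.2 per 1000 coding nt against 16.3 over all tested genes. ACTG and ACTT, reported in the same way, had medians of 8.1 and 8.3. The densest 60-nt coding stretches of 4 genes that the results turn on are shown with AGGA and TGGA in capitals (overlaps counted).
Kif1a: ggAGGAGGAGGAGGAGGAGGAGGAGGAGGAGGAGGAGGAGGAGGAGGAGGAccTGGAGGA
Unc13a: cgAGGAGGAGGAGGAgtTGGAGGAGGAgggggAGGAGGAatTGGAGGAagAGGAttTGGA
Map1a: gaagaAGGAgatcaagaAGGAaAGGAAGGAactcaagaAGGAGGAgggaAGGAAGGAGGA
App: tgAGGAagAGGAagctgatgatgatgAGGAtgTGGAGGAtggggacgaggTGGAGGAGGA
The Kif1a stretch lay at chr1:93051484-93051543 on the minus strand of GRCm38, in exon 27 of 49, and held 18 of these words in an almost unbroken repeat. The Unc13a stretch lay at chr8:71658502-71658561 on the minus strand, in exon 10 of 45, and held 13. That of Map1a lay at chr2:121300675-121300734 on the plus strand, in exon 5 of 7, with 9, and that of App at chr16:85056419-85056478 on the minus strand, in exon 6 of 18, with 8. All 4 stretches lie in coding exons, outside the UTRs. The letters are a description and say nothing of binding in these cells.

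All 39 mRNAs were measured well above the counting limit. Their lowest count in a library was 614, for Ryr2, the highest 490820, for Map1b, and all 39 were among the 15433 genes tested, in libraries of 21643592 to 134110850 gene counts. Levels are in CPM, a gene's counts relative to the total of its library after TMM scaling. A change is edgeR's log2 ratio of group means ± a standard error. That error was derived from the test, as the size of the change divided by the square root of its F statistic. A gene is called higher or lower at an adjusted p under 0.05, by the quasi-likelihood test of edgeR, with p-values adjusted by Benjamini and Hochberg's method over the 15433 genes. The targeted gene, Fmr1, had 21.5, 22.2 and 29.4 CPM in KO DMSO, against 124, 119 and 119 CPM in WT DMSO (log2 change -2.31, edgeR adjusted p = 9.2e-08), and in JQ1 its log2 change was -2.30. The third KO libraries stood apart: Xist had 4.34 CPM in KO JQ1 replicate 3 and 4.29 CPM in KO DMSO replicate 3, against 230.5 to 441 CPM in the other 10 libraries. The sex-linked gene Ddx3y had 76.2 CPM in KO JQ1 replicate 3 and 54.5 CPM in KO DMSO replicate 3, against 28.05 to 46.1 CPM in the other 10. Whether the cultures differed in sex was not tested. Results between genotypes are therefore also given without both KO replicate 3 libraries. Excitatory neuron markers summed to 1078 to 1144 CPM in KO DMSO and 1013 to 1154 CPM in WT DMSO, with 2 of 7 called higher in KO and 1 lower. Inhibitory neuron markers summed to 635 to 701 CPM in KO DMSO and 450.4 to 565 CPM in WT DMSO, with 7 of 10 called higher in KO. Astrocyte and radial glia markers summed to 961 to 1301 CPM in KO DMSO and 1387 to 1686 CPM in WT DMSO, with 2 of 9 called lower in KO. Proliferating progenitor markers summed to 198 to 248 CPM in KO DMSO and 246 to 281 CPM in WT DMSO, with 4 of 8 called lower in KO, and fibroblast markers to 11.02 to 14.8 CPM in KO DMSO and 25.4 to 34.00 CPM in WT DMSO, with 2 of 5 lower and 1 higher. Over all 12 libraries, oligodendrocyte lineage markers summed to 146 to 213 CPM, microglia markers to 6.55 to 11.96 CPM and endothelial markers to 0.615 to 2.78 CPM. None of those tested was called between the genotypes, but only 6 of 7 microglia and 2 of 5 endothelial markers were tested. No marker of these lists was at 0 in every library, and their part in the results was not tested. In such bulk RNA, fewer cells that express a gene and less RNA per cell cannot be told apart.

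All levels are relative to the other mRNAs of a library. With libraries scaled on the ERCC spike-in RNAs instead, the median log2 change of all genes tested was -0.82 in KO against WT in DMSO, -0.12 in KO against WT in JQ1, 0.067 in JQ1 against DMSO in KO and -0.63 in WT. The sources used here do not state how much spike-in RNA each library received. The changes below are therefore differences from the middle of all mRNAs, and not amounts per cell.

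KO against WT in DMSO asks which of these mRNAs differ in level where FMRP is missing. Of the 39 members, 11 were higher in KO and 0 were lower, where 7.21% of all genes tested were called higher and 7.76% lower. The 11 were Map1a, the transport genes Kif1a, Kif5a and Mapk8ip3, the vesicle priming gene Unc13a, Ryr2 and Ncdn, all 3 of App, Lrp1 and Sorl1, and the splicing gene Srrm2. Their changes were small, with log2 values of 0.15 to 0.58. The log2 change of the 39 had a median of 0.21, against -0.015 over all genes tested, and was positive in 36 of 39 members and 7241 of the 15433. No member had an unadjusted p under 0.05 in the lower direction, and DESeq2 called 12 higher and 0 lower. With spike-in scaling, which shifts all genes, 0 of 39 members were positive and 0 were called higher and 14 lower, where 77.7% of genes were lower, while the median of the members stayed 0.27 above that of all genes. Without both KO replicate 3 libraries 16 members were called higher, where 9.42% of genes were. With 1 library left out, the count of higher members and the share of higher genes were 5 and 3.97% without KO DMSO replicate 1, 3 and 5.24% without KO DMSO replicate 2, 16 and 9.96% without KO DMSO replicate 3, 2 and 3.71% without WT DMSO replicate 1, 3 and 3.67% without WT DMSO replicate 2, and 18 and 5.29% without WT DMSO replicate 3.

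**Figure D1:**
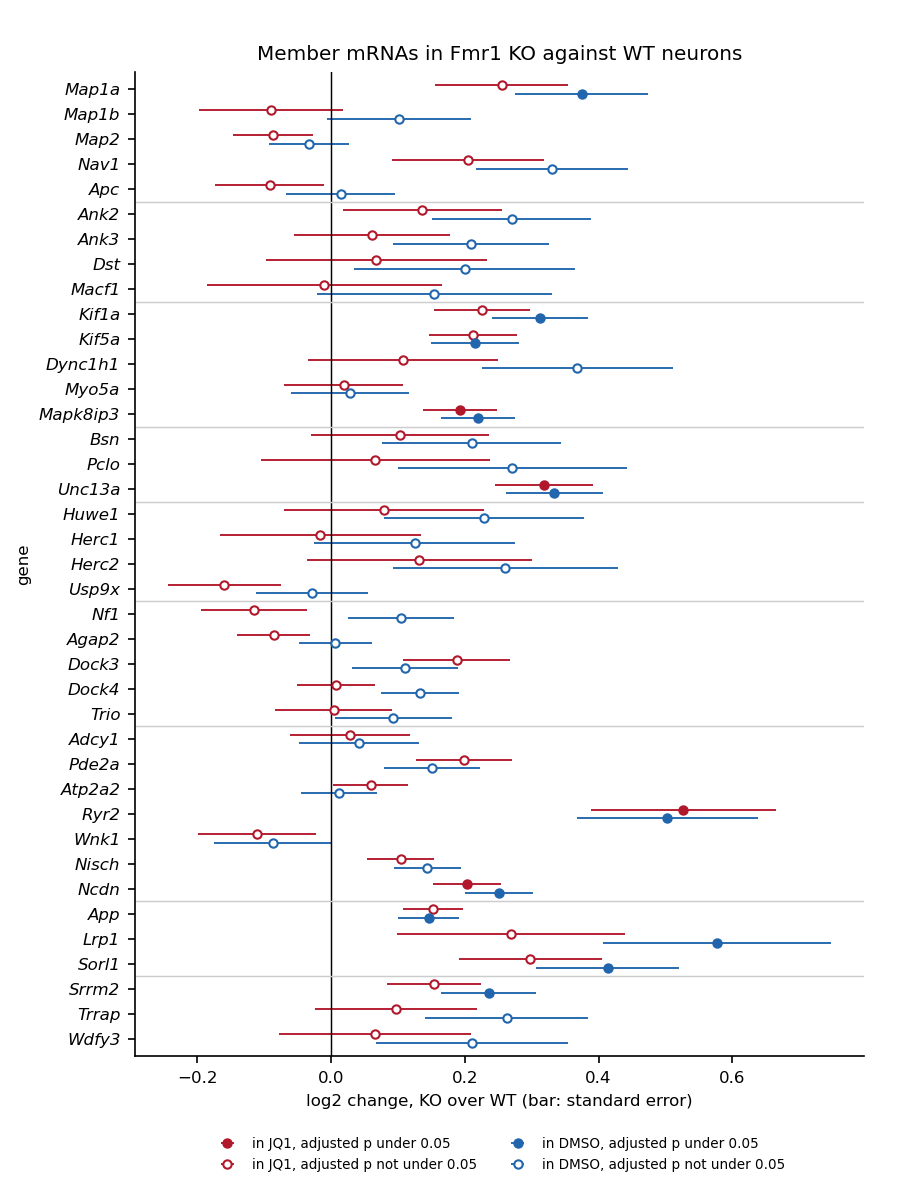
Log2 change of each of the 39 mRNAs in KO over WT neurons (x axis), in JQ1 (red, upper point of each pair) and in DMSO (blue, lower point), with genes on the y axis grouped by role, bars for the standard error and filled points for an adjusted p under 0.05. In DMSO 36 of 39 points lie right of 0 and 11 are filled; in JQ1 30 of 39 lie right of 0 and 4 are filled.

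Among the cytoskeletal genes, 1 of 5 microtubule-associated members and 0 of 4 ankyrins and spectraplakins were called. Map1a, a microtubule-associated protein of mature neurites, had 323, 365 and 296 CPM in KO DMSO, against 222, 246 and 292 CPM in WT DMSO. Each KO library lay above each WT library, the closest pair differing little (log2 change 0.37 ± 0.10, edgeR adjusted p = 0.0237). The call was lost without KO DMSO replicate 1, KO DMSO replicate 2, WT DMSO replicate 1 or WT DMSO replicate 2, with an adjusted p of 0.0524 to 0.0944. The exons of Map1a overlap those of Ppip5k1 on the other strand. Map1b and Map2, the most abundant of the class, had log2 changes of 0.10 and -0.033. Nav1, a neuron navigator at growing microtubule ends, had a log2 change of 0.33 ± 0.11 and was not called (edgeR adjusted p = 0.0636), and Apc, a microtubule and beta-catenin regulator, stood at 0.014. Ank2 and Ank3, which anchor channels to the spectrin skeleton, stood at 0.27 and 0.21, and the actin-to-microtubule linkers Dst and Macf1 at 0.20 and 0.15. These 4 long mRNAs had standard errors of 0.12 to 0.18, and in each WT DMSO replicate 3 lay above KO DMSO replicate 3.

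Of the 5 transport genes, 3 rose in KO. Kif1a, the kinesin that carries synaptic vesicle precursors, had 1644, 1772 and 1492 CPM in KO DMSO, against 1269, 1304 and 1380.0 CPM in WT DMSO. The groups did not overlap (log2 change 0.31 ± 0.071, edgeR adjusted p = 0.0119), and of the fits with 1 library left out only the one without WT DMSO replicate 1 lost the call (adjusted p = 0.0505). Mapk8ip3, an adaptor that links cargo to kinesin and dynein, had 390.2, 400.5 and 362 CPM in KO DMSO, against 327, 331 and 331 CPM in WT DMSO. Its groups did not overlap either (log2 change 0.22 ± 0.055, edgeR adjusted p = 0.018), and the call was lost without KO DMSO replicate 1, KO DMSO replicate 2, WT DMSO replicate 1 or WT DMSO replicate 2, at adjusted p values of 0.0501 to 0.06. The exons of Mapk8ip3 overlap those of Eme2, Mrps34 and Nme3, and since the strand setting of the counting is not given, its values are uncertain. Kif5a, a heavy chain of conventional kinesin, averaged 825 ± 80.9 CPM in KO DMSO and 711 ± 22.7 CPM in WT DMSO (SD, n = 3 each). It rose by a log2 change of 0.22 ± 0.066 (edgeR adjusted p = 0.0421), a call that was kept only when KO DMSO replicate 3 was the library left out, and otherwise had an adjusted p of 0.0614 to 0.133. Dync1h1, the heavy chain of cytoplasmic dynein, had a log2 change of 0.37 ± 0.14 (edgeR adjusted p = 0.0937), and Myo5a, an actin motor, 0.028. Neither was called.

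Of the 3 active zone genes, Unc13a alone was called. Unc13a, which primes synaptic vesicles for fusion, had 328, 345 and 299 CPM in KO DMSO, against 246, 257 and 268 CPM in WT DMSO. Every KO library lay above every WT library (log2 change 0.33 ± 0.073, edgeR adjusted p = 0.0098), and the call was kept whichever of the 6 libraries was left out. Its exons overlap those of Colgalt1 on the other strand. The scaffold genes Bsn and Pclo had log2 changes of 0.21 ± 0.13 and 0.27 ± 0.17, with WT DMSO replicate 3 inside the range of the KO libraries, and were not called. None of the 4 ubiquitin pathway genes was called: the ligases Huwe1, Herc1 and Herc2 had log2 changes of 0.23, 0.12 and 0.26, and the deubiquitinase Usp9x -0.028. Of the regulators of small GTPases, Nf1 (for Ras) stood at 0.10, Agap2 (for Arf) at 0.0061, Dock3 and Dock4 (for Rac) at 0.11 and 0.13, and Trio, an exchange factor, at 0.093, and 0 of 5 were called.

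Among the 7 signalling genes, Ncdn and Ryr2 rose. Ncdn, a neuronal protein that binds CaM kinase and tempers its activity, had 580.0, 557 and 569 CPM in KO DMSO, against 464, 474 and 496 CPM in WT DMSO. The libraries of a group lay close together and the groups apart (log2 change 0.25 ± 0.051, edgeR adjusted p = 0.00687), and the call was kept in all 6 fits with 1 library left out. Ryr2, which releases calcium from the endoplasmic reticulum, had 52.9, 64.2 and 43.6 CPM in KO DMSO, against 33.6, 33.97 and 45.98 CPM in WT DMSO. The groups overlapped, since WT DMSO replicate 3 lay above KO DMSO replicate 3 (log2 change 0.50 ± 0.14, edgeR adjusted p = 0.025), and without KO DMSO replicate 1, KO DMSO replicate 2, WT DMSO replicate 1 or WT DMSO replicate 2 the adjusted p was 0.0576 to 0.1. The other 5 were not called: the cyclase Adcy1 had a log2 change of 0.042, the cyclic nucleotide phosphodiesterase Pde2a 0.15, the calcium pump Atp2a2 0.012, the kinase Wnk1 -0.087 and Nisch 0.14.

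All 3 genes of the App group rose. Sorl1, a receptor that sorts App within the cell, had 66.3, 81.5 and 64.9 CPM in KO DMSO, against 46.6, 50.4 and 62.8 CPM in WT DMSO. The groups did not overlap, with KO DMSO replicate 3 just above WT DMSO replicate 3 (log2 change 0.41 ± 0.11, edgeR adjusted p = 0.0204), and without KO DMSO replicate 2, WT DMSO replicate 1 or WT DMSO replicate 2 the adjusted p was 0.0765 to 0.0843. Lrp1, an endocytic receptor that binds App and lipoproteins, had 326, 384 and 291 CPM in KO DMSO, against 184, 189 and 298 CPM in WT DMSO. Its change was the largest of the 39 in this comparison, but WT DMSO replicate 3 lay above KO DMSO replicate 3 (log2 change 0.58 ± 0.17, edgeR adjusted p = 0.037). It was not called without KO DMSO replicate 1, KO DMSO replicate 2, WT DMSO replicate 1 or WT DMSO replicate 2, at 0.0788 to 0.14, nor by DESeq2 (adjusted p = 0.0511). App had 1099, 1146 and 1048 CPM in KO DMSO, against 957, 998 and 1021 CPM in WT DMSO. The lowest KO and the highest WT library differed little (log2 change 0.15 ± 0.046, edgeR adjusted p = 0.0454), and the adjusted p was 0.0877 to 0.156 without KO DMSO replicate 1, KO DMSO replicate 2, WT DMSO replicate 1 or WT DMSO replicate 2. Srrm2, a large nuclear protein of the spliceosome, averaged 346 ± 26.1 CPM in KO DMSO and 294 ± 19.6 CPM in WT DMSO (SD, n = 3 each), a log2 change of 0.24 ± 0.071 (edgeR adjusted p = 0.0397) that was not called without KO DMSO replicate 2, WT DMSO replicate 1 or WT DMSO replicate 2, at 0.115 to 0.136. Trrap, a scaffold of histone acetyltransferase complexes, and Wdfy3, an autophagy adaptor, had log2 changes of 0.26 and 0.21 and were not called.

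The authors' deposited table of KO against WT holds all 39 members, with 10 higher in KO and 0 lower at an adjusted p under 0.05, where 12.9% of its rows with an adjusted p are higher. Of the 11 members called here, 9 are called in the authors' deposited table too. Nisch is called there in addition (log2 change 0.15, adjusted p = 0.00282), and Lrp1 and Ryr2 are not. Their log2 changes are 0.27 and 0.28 in the authors' deposited table, against 0.58 and 0.50 here. Neither the model of the authors' deposited table nor the treatment of its libraries is stated, so these sizes cannot be compared directly. The authors' deposited table comes from the same series and is no independent measurement.

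KO against WT was also compared among neurons in JQ1, with other libraries than in DMSO. They are no independent repeat: the same fit estimated their spread, and KO libraries of the same number in JQ1 and DMSO deviated together (r of 0.212 to 0.287). Of the 39 members 4 were called higher in KO and 0 lower, where 4.84% of all genes tested were called higher and 4.13% lower. The 4 were Unc13a, Ncdn, Ryr2 and Mapk8ip3, and each of them was also called in DMSO. The median log2 change of the 39 was 0.097, against -0.0045 over all genes tested, and 30 of 39 were positive. DESeq2 called 8 higher and 0 lower (8.31% of the genes it adjusted were higher), no member was lower at an unadjusted p under 0.05, and with spike-in scaling 0 were called in either direction. Without both KO replicate 3 libraries 11 were called higher, where 7.84% of genes were. With 1 library left out, the count and the share of higher genes were 0 and 2.22% without KO JQ1 replicate 1, 1 and 2.6% without KO JQ1 replicate 2, 8 and 6.43% without KO JQ1 replicate 3, 0 and 1.96% without WT JQ1 replicate 1, 0 and 1.99% without WT JQ1 replicate 2, and 3 and 3.8% without WT JQ1 replicate 3. Astrocyte and radial glia markers summed to 616 to 1008 CPM in KO JQ1 and 1052 to 1370.4 CPM in WT JQ1, with 1 of 9 called lower in KO. Inhibitory neuron markers summed to 549 to 649 CPM in KO JQ1 and 392 to 596 CPM in WT JQ1, with 4 of 10 called higher in KO. Of 7 excitatory neuron markers 1 was called higher and 1 lower in KO. Proliferating progenitor markers summed to 196 to 264 CPM in KO JQ1 and 288 to 352 CPM in WT JQ1, with 3 of 8 called lower in KO, and fibroblast markers to 7.44 to 10.3 CPM in KO JQ1 and 14.8 to 19.9 CPM in WT JQ1, with 1 of 5 lower. Their part was not tested.

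Unc13a had 366, 329.9 and 292 CPM in KO JQ1, against 270.5, 264 and 258 CPM in WT JQ1. The groups did not overlap (log2 change 0.32 ± 0.073, edgeR adjusted p = 0.0169), and the call was lost without KO JQ1 replicate 1, WT JQ1 replicate 1 or WT JQ1 replicate 2, at 0.0501 to 0.072. Ncdn had 683, 667 and 606 CPM in KO JQ1, against 555, 559.8 and 585 CPM in WT JQ1. KO JQ1 replicate 3 was the lowest of its group and still above the WT libraries (log2 change 0.20 ± 0.050, edgeR adjusted p = 0.0242), and without KO JQ1 replicate 1, KO JQ1 replicate 2, WT JQ1 replicate 1 or WT JQ1 replicate 2 the adjusted p was 0.0788 to 0.101. Ryr2 had 38.7, 40.8 and 33.3 CPM in KO JQ1, against 25.5, 24.95 and 28.7 CPM in WT JQ1. Unlike in DMSO, its groups did not overlap (log2 change 0.53 ± 0.14, edgeR adjusted p = 0.0321), though without KO JQ1 replicate 1, KO JQ1 replicate 2, WT JQ1 replicate 1 or WT JQ1 replicate 2 the adjusted p was 0.0847 to 0.128. Mapk8ip3 averaged 451 ± 34.00 CPM in KO JQ1 and 395 ± 5.76 CPM in WT JQ1 (SD, n = 3 each), a log2 change of 0.19 ± 0.055 (edgeR adjusted p = 0.0432) that was not called without KO JQ1 replicate 1, KO JQ1 replicate 2, WT JQ1 replicate 1, WT JQ1 replicate 2 or WT JQ1 replicate 3, at 0.0921 to 0.179.

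The other 7 genes called in DMSO kept a positive log2 change in JQ1 without passing the test there. It was 0.26 in JQ1 and 0.37 in DMSO for Map1a, 0.23 in JQ1 and 0.31 in DMSO for Kif1a and 0.21 in JQ1 and 0.22 in DMSO for Kif5a. For App it was 0.15 in JQ1 and 0.15 in DMSO, with 1488, 1566 and 1509 CPM in KO JQ1, against 1370.3, 1357 and 1378 CPM in WT JQ1. The App libraries did not overlap in JQ1 (edgeR adjusted p = 0.0516). Lrp1 stood at 0.27 in JQ1 and 0.58 in DMSO, Sorl1 at 0.30 in JQ1 and 0.41 in DMSO and Srrm2 at 0.15 in JQ1 and 0.24 in DMSO. The difference between these values is the difference of the JQ1 responses, which no member passed. Members below 0 in JQ1 were Usp9x, at -0.16, Nf1, at -0.12, Wnk1, at -0.11, Apc, at -0.092, Map1b, at -0.090, Map2, at -0.087, Agap2, at -0.086, Herc1, at -0.016, and Macf1, at -0.010, and none of these 9 was called.

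**Figure D2:**
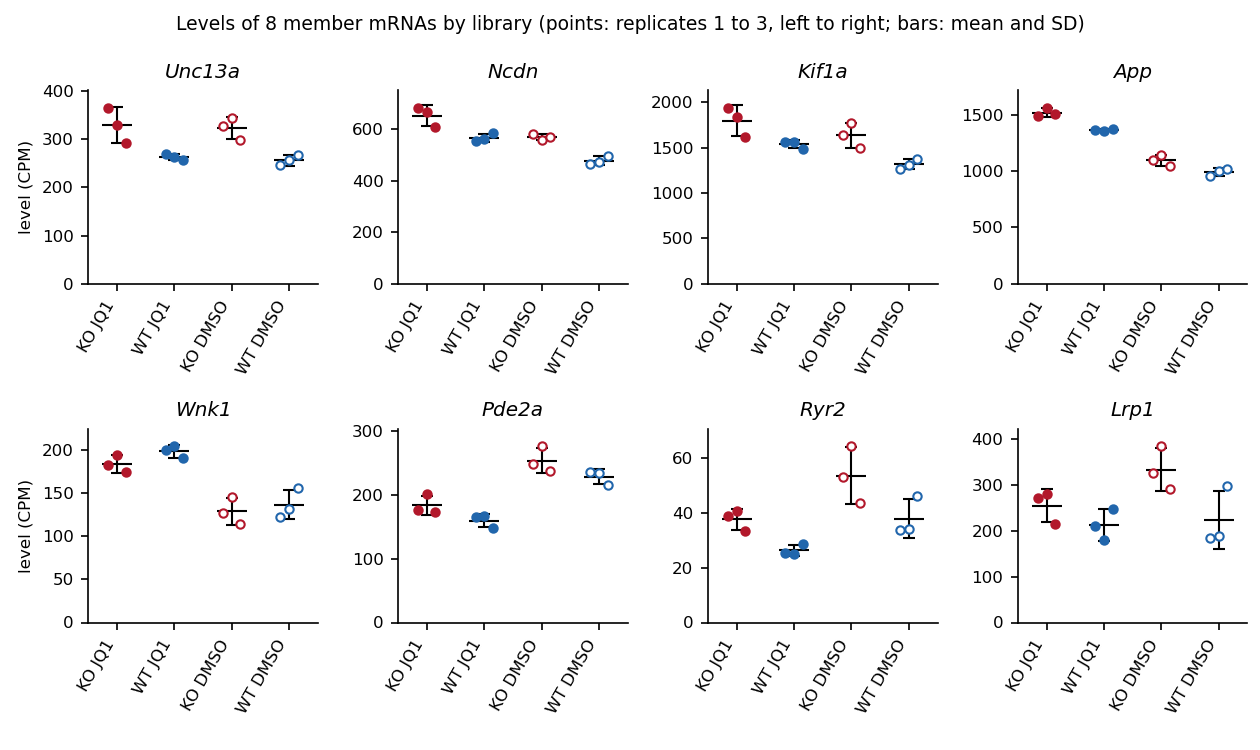
Level in CPM (y axis, from 0) of 8 of the mRNAs in the 12 libraries by group (x axis), with points for replicates 1 to 3, red for KO, blue for WT, filled for JQ1 and open for DMSO, and bars for the mean and SD. Unc13a and Ncdn lie higher in KO than in WT under each treatment, App and Wnk1 higher in JQ1 than in DMSO, and Pde2a and Ryr2 lower in JQ1 than in DMSO.

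JQ1 against DMSO asks how the same mRNAs respond when BET proteins are blocked for 24 hours. In KO neurons 10 of the 39 were higher in JQ1 and 2 lower, where 27.7% and 29.4% of all genes tested were. In WT neurons 13 were higher and 2 lower, where 25.9% and 29.3% were. A share of members called higher near that of all genes is no result about the members as a class. The 2 genes that fell, Pde2a and Ryr2, did so in both genotypes. All 10 genes that rose in KO also rose in WT, and both comparisons found App, Wnk1, Map1a, Kif5a, Mapk8ip3, Ncdn, Srrm2, Trrap, Atp2a2 and Agap2. The median log2 change of the members was 0.024 in KO and 0.13 in WT, against 0.0014 and -0.0043 over all genes tested. Their median absolute log2 change, 0.13 in KO and 0.16 in WT, lay under that of all genes, 0.26 and 0.26. With spike-in scaling 0 members were called higher and 0 lower in KO, and 0 higher and 2 lower in WT. Of all genes tested, 1.33% were higher and 8.51% lower in KO under that scaling, and 0.259% and 37.7% in WT. The calls above come from fits without pairs. In an alternative fit the replicate numbers were taken to pair the JQ1 and DMSO libraries of KO. That pairing came from their correlated deviations and not from a stated design. With the culture as a block 13 members were called higher and 6 lower in KO, where 31.0% and 31.8% of genes were. The block added Kif1a, Myo5a and Dock3 above and Ank3, Nf1, Lrp1 and Sorl1 below. In WT such a block gave 20 members higher and 2 lower, where 28.8% and 31.4% of genes were. Without KO DMSO replicate 3 the count of lower members in KO was 6, where 28.9% of genes were lower. Astrocyte and radial glia markers summed to 616 to 1008 CPM in KO JQ1 and 961 to 1301 CPM in KO DMSO, and to 1052 to 1370.4 CPM in WT JQ1 and 1387 to 1686 CPM in WT DMSO, with 4 of 9 called lower in KO and 5 in WT. Of the other lists, 3 of 8 oligodendrocyte lineage markers were called lower in each genotype (1 higher in WT). Of the 6 microglia markers tested, 4 were lower in KO and 3 in WT. Of 10 inhibitory neuron markers 3 were lower in KO and 2 in WT (1 higher in WT). Of 5 fibroblast markers 3 were lower in KO and 2 in WT, and of the 2 endothelial markers tested 1 was lower in WT. Of 7 excitatory neuron markers 2 were higher and 2 lower in each genotype, and of 8 proliferating progenitor markers 3 were higher in KO and 2 in WT. The part of these in the results was not tested.

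**Figure D3:**
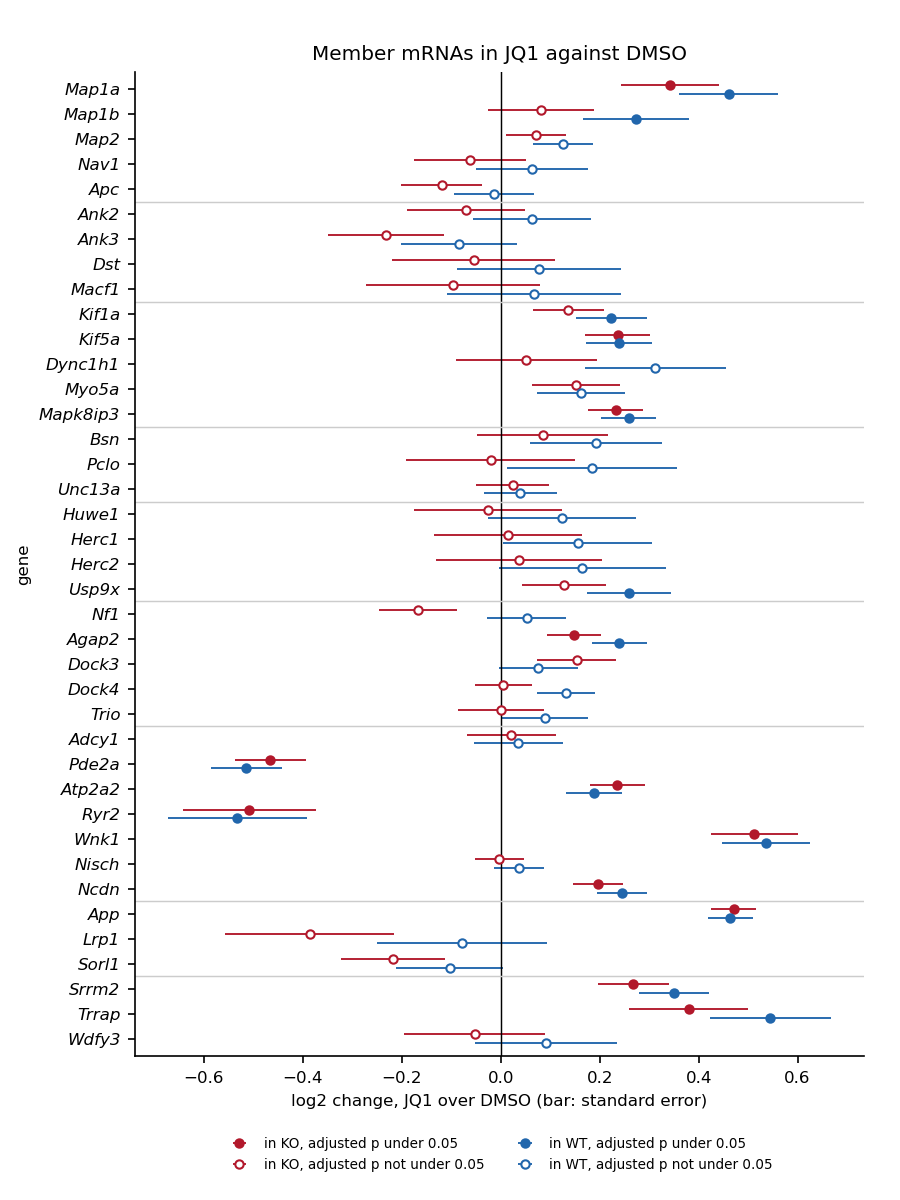
Log2 change of each of the 39 mRNAs in JQ1 over DMSO (x axis), in KO (red, upper point of each pair) and in WT neurons (blue, lower point), with genes on the y axis grouped by role, bars for the standard error and filled points for an adjusted p under 0.05. App and Wnk1 lie near 0.5 and Pde2a and Ryr2 near -0.5 in both genotypes.

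The smallest p-values belonged to App, the precursor of the amyloid peptide. It had 1488, 1566 and 1509 CPM in KO JQ1, against 1099, 1146 and 1048 CPM in KO DMSO, and 1370.3, 1357 and 1378 CPM in WT JQ1, against 957, 998 and 1021 CPM in WT DMSO. The libraries of each group lay within a narrow range and far from those of the other treatment, with log2 changes of 0.47 ± 0.046 in KO and 0.46 ± 0.046 in WT (edgeR adjusted p = 1.14e-06 and 1.44e-06). Of its receptors, Lrp1 had log2 changes of -0.39 ± 0.17 in KO and -0.078 ± 0.17 in WT, and Sorl1 of -0.22 ± 0.11 in KO and -0.10 ± 0.11 in WT. Neither was called in either genotype, but with the culture as a block both fell in KO, Lrp1 by 0.39 (edgeR adjusted p = 0.000163) and Sorl1 by 0.22 (edgeR adjusted p = 0.00566) on the log2 scale. They were also called lower without KO DMSO replicate 3, at log2 changes of -0.49 and -0.29.

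The signalling genes split. Wnk1, a kinase that controls chloride cotransporters, had 182, 194 and 175 CPM in KO JQ1, against 127, 146 and 114 CPM in KO DMSO, and 200.4, 204 and 191 CPM in WT JQ1, against 123, 132 and 156 CPM in WT DMSO. Every JQ1 library lay above every DMSO library of its genotype (log2 changes 0.51 ± 0.089 in KO and 0.54 ± 0.089 in WT, edgeR adjusted p = 0.000211 and 0.000159). Pde2a, a phosphodiesterase of cyclic AMP and cyclic GMP, had 177, 201 and 173 CPM in KO JQ1, against 248, 276 and 238 CPM in KO DMSO, and 165, 167 and 148 CPM in WT JQ1, against 237, 234 and 215 CPM in WT DMSO. It fell by 0.47 in KO and 0.51 in WT on the log2 scale, without overlap (edgeR adjusted p = 7.99e-05 and 3.75e-05). Ryr2 had 38.7, 40.8 and 33.3 CPM in KO JQ1, against 52.9, 64.2 and 43.6 CPM in KO DMSO, and 25.5, 24.95 and 28.7 CPM in WT JQ1, against 33.6, 33.97 and 45.98 CPM in WT DMSO. It fell by 0.51 in KO and 0.53 in WT, again without overlap (edgeR adjusted p = 0.00501 and 0.00502), and its level in KO neurons in JQ1 overlapped the range of WT neurons in DMSO. The exons of Pde2a overlap those of a second annotated gene of that name over 3955 bases. The calcium pump Atp2a2 had 660.2, 643 and 616 CPM in KO JQ1, against 552, 574 and 504 CPM in KO DMSO, and rose by 0.24 ± 0.056 in KO (edgeR adjusted p = 0.00257) and by 0.19 ± 0.056 in WT, where the call was lost without WT JQ1 replicate 2 (adjusted p = 0.0535). Ncdn averaged 652 ± 40.5 CPM in KO JQ1 and 569 ± 11.5 CPM in KO DMSO, and 566 ± 16.1 CPM in WT JQ1 and 478 ± 16.6 CPM in WT DMSO (SD, n = 3 each), with log2 changes of 0.20 in KO and 0.25 in WT (edgeR adjusted p = 0.00408 and 0.000928). Adcy1, at 0.022 in KO and 0.035 in WT, and Nisch, at -0.0031 in KO and 0.037 in WT, were not called.

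Of the nuclear genes, Srrm2 had 449, 423 and 377 CPM in KO JQ1, against 319.8, 372 and 346 CPM in KO DMSO, and 374, 387 and 362 CPM in WT JQ1, against 277, 289 and 315 CPM in WT DMSO. The groups did not overlap (log2 changes 0.27 ± 0.071 in KO and 0.35 ± 0.071 in WT, edgeR adjusted p = 0.00502 and 0.000828). Trrap rose by 0.38 ± 0.12 in KO and 0.55 ± 0.12 in WT (edgeR adjusted p = 0.0151 and 0.00171), the KO call being lost without KO JQ1 replicate 2 or KO DMSO replicate 3, at 0.0591 to 0.0779. The autophagy gene Wdfy3, at -0.053 in KO and 0.092 in WT, was not called. Among the cytoskeletal genes Map1a had 457, 428 and 363 CPM in KO JQ1, against 323, 365 and 296 CPM in KO DMSO, and 348, 345 and 352 CPM in WT JQ1, against 222, 246 and 292 CPM in WT DMSO. The KO groups overlapped and the WT groups did not (log2 changes 0.34 ± 0.099 in KO and 0.46 ± 0.10 in WT, edgeR adjusted p = 0.00897 and 0.00133), and the KO call was lost without KO DMSO replicate 3, at 0.0521. Map1b, which stabilises microtubules in growing axons, had 3723, 3773 and 3392 CPM in WT JQ1, against 2765, 2883 and 3362 CPM in WT DMSO. It was called in WT alone, with a log2 change of 0.27 ± 0.11 (edgeR adjusted p = 0.0433), against 0.081 ± 0.11 in KO, and without WT JQ1 replicate 1, WT JQ1 replicate 2, WT DMSO replicate 1 or WT DMSO replicate 2 the WT adjusted p was 0.0853 to 0.144. Map2, at 0.071 in KO and 0.13 in WT, Nav1, at -0.062 in KO and 0.063 in WT, and Apc, at -0.12 in KO and -0.013 in WT, were not called, nor were the ankyrins and spectraplakins: Ank2 stood at -0.070 in KO and 0.064 in WT, Ank3 at -0.23 in KO and -0.084 in WT, Dst at -0.055 in KO and 0.077 in WT and Macf1 at -0.097 in KO and 0.068 in WT.

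Of the transport genes, Mapk8ip3 had 486, 450.3 and 418 CPM in KO JQ1, against 390.2, 400.5 and 362 CPM in KO DMSO, and 401, 393 and 389.9 CPM in WT JQ1, against 327, 331 and 331 CPM in WT DMSO. Neither pair of groups overlapped (log2 changes 0.23 ± 0.055 in KO and 0.26 ± 0.055 in WT, edgeR adjusted p = 0.00237 and 0.00117). Kif5a rose by 0.24 ± 0.066 in KO and by 0.24 ± 0.066 in WT (edgeR adjusted p = 0.00707 and 0.0069), and the KO value was 0.14 without KO DMSO replicate 3 (edgeR adjusted p = 0.0447). Kif1a had 1565, 1564 and 1486 CPM in WT JQ1, against 1269, 1304 and 1380.0 CPM in WT DMSO, and rose by 0.22 ± 0.071 in WT (edgeR adjusted p = 0.0158, and 0.0563 without WT DMSO replicate 1). In KO its log2 change was 0.14 ± 0.071, not called without the block and called with it (edgeR adjusted p = 0.0258). Dync1h1 stood at 0.051 in KO and 0.31 in WT and Myo5a at 0.15 in KO and 0.16 in WT. The active zone genes Bsn, at 0.085 in KO and 0.19 in WT, Pclo, at -0.021 in KO and 0.18 in WT, and Unc13a, at 0.024 in KO and 0.040 in WT, were not called. Usp9x had 367, 372 and 342 CPM in WT JQ1, against 285, 283 and 335 CPM in WT DMSO, and rose in WT by 0.26 ± 0.084 (edgeR adjusted p = 0.0174, and 0.0585 to 0.0734 without WT JQ1 replicate 2, WT DMSO replicate 1 or WT DMSO replicate 2), against 0.13 ± 0.084 in KO, which was not called. The ligases Huwe1, at -0.026 in KO and 0.12 in WT, Herc1, at 0.015 in KO and 0.16 in WT, and Herc2, at 0.036 in KO and 0.16 in WT, did not pass. Agap2 rose by 0.15 ± 0.055 in KO (edgeR adjusted p = 0.0312, and 0.106 to 0.131 without KO JQ1 replicate 1, KO JQ1 replicate 2, KO DMSO replicate 1 or KO DMSO replicate 3) and by 0.24 ± 0.055 in WT (edgeR adjusted p = 0.00193). Nf1, at -0.17 in KO and 0.052 in WT, Dock3, at 0.15 in KO and 0.076 in WT, Dock4, at 0.0055 in KO and 0.13 in WT, and Trio, at -1.3e-04 in KO and 0.089 in WT, were not called.

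The difference between the JQ1 responses, KO minus WT, was tested in the same fit. Of the 39 members 0 were higher and 0 lower, as were 0 of all 15433 genes (0.0% and 0.0%), by edgeR's quasi-likelihood test, and DESeq2 called 0 of the 25046 genes it adjusted; at an unadjusted edgeR p under 0.05 there were 0 members among 355 genes. So the calls of Kif1a, Map1b and Usp9x in WT alone are not shown to differ from KO. The log2 difference was negative in 34 of 39 members, with a median of -0.11 against 0.0097 over all genes tested. It ran from -0.31 ± 0.24 for Lrp1 to 0.077 ± 0.11 for Dock3. Across the 39 members it was lower at longer coding length (Spearman correlation -0.68, n = 39 genes). The median was -0.145 in the 13 members with a coding length over 10000 nt and -0.068 in the other 26. In 76 other tested genes over 10000 nt, not matched to the members in level, it was -0.071. Leaving out KO DMSO replicate 2 brought the members' median to -0.018, and leaving out KO DMSO replicate 3 to -0.199. For App, Ryr2, Wnk1 and Pde2a the difference was 0.0066 ± 0.064, 0.024 ± 0.19, -0.024 ± 0.13 and 0.048 ± 0.10. Without a block, 21 of the 39 members were called in none of these comparisons: Adcy1, Ank2, Ank3, Apc, Bsn, Dock3, Dock4, Dst, Dync1h1, Herc1, Herc2, Huwe1, Macf1, Map2, Myo5a, Nav1, Nf1, Nisch, Pclo, Trio and Wdfy3. Of these, Ank3, Nf1, Dock3 and Myo5a were called in KO with the culture as a block. The same block in WT called Dync1h1, Myo5a, Bsn, Pclo, Herc1, Herc2 and Dock4 higher, at log2 changes of 0.13 to 0.32. A p that misses the threshold does not show that a level did not differ.

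**Figure D4:**
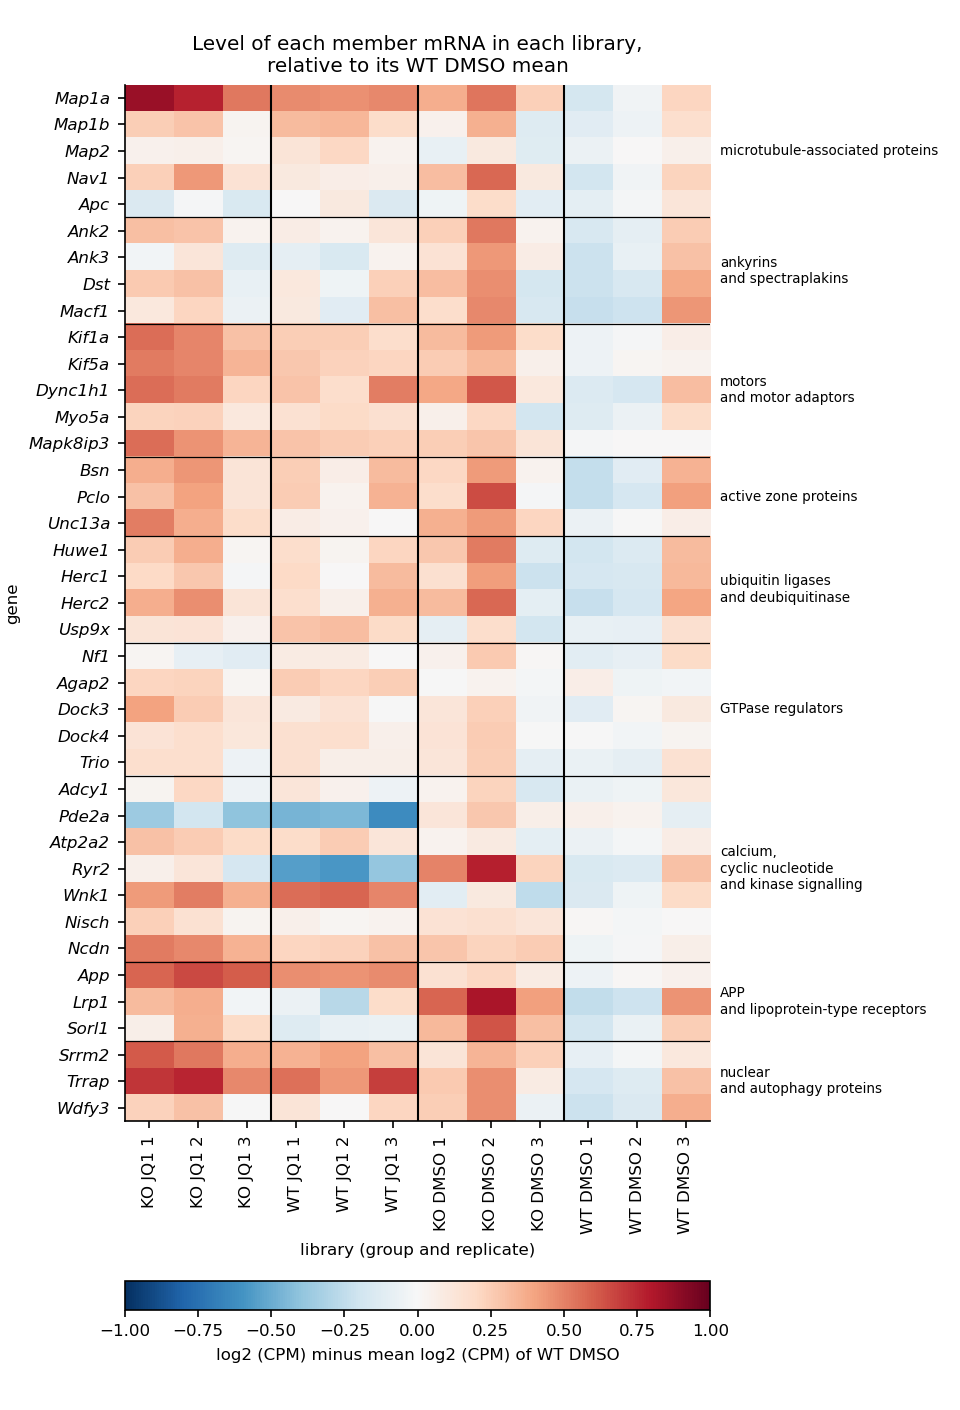
Log2 level of each mRNA (rows, grouped by role) in each of the 12 libraries (columns, KO JQ1, WT JQ1, KO DMSO and WT DMSO, replicates 1 to 3), relative to its mean in WT DMSO, from blue (lower) to red (higher). App, Wnk1 and Trrap are red in the JQ1 columns, Pde2a blue there, and KO DMSO replicate 2 and WT DMSO replicate 3 are redder over many long mRNAs than the other libraries of their groups.

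Replicates differed more for the members with longer coding sequences. The SD of log2 levels within groups, pooled over the 4 groups, ran from 0.045 for App and 0.056 for Nisch to 0.28 for Macf1. Across the 39 members it followed coding length with a Spearman correlation of 0.883 (n = 39 genes of the same 12 libraries), where it was 0.064 over the 5390 genes with a mean level of at least 38.9 CPM, that of the lowest member. The 13 members with a coding length over 10000 nt had a median SD of 0.24 and the 9 under 5000 nt of 0.068, close to 0.067 over all genes at such levels. The 13 deviated in the same libraries. KO JQ1 replicate 3, KO DMSO replicate 3 and WT JQ1 replicate 2 were the lowest of their groups in 13 of 13. KO DMSO replicate 2 and WT DMSO replicate 3 were the highest in 13 of 13. The 13 had a median deviation from the group mean of -0.18 in KO JQ1 replicate 3. It was 0.26 and -0.28 in KO DMSO replicates 2 and 3, and 0.35 in WT DMSO replicate 3. In WT JQ1 it was -0.14 in replicate 2 and 0.14 in replicate 3. In 23 other genes of that coding length the same libraries deviated by -0.16, 0.25, -0.24, 0.27, -0.11 and 0.10, in that order. The cause was not tested.

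**Figure D5:**
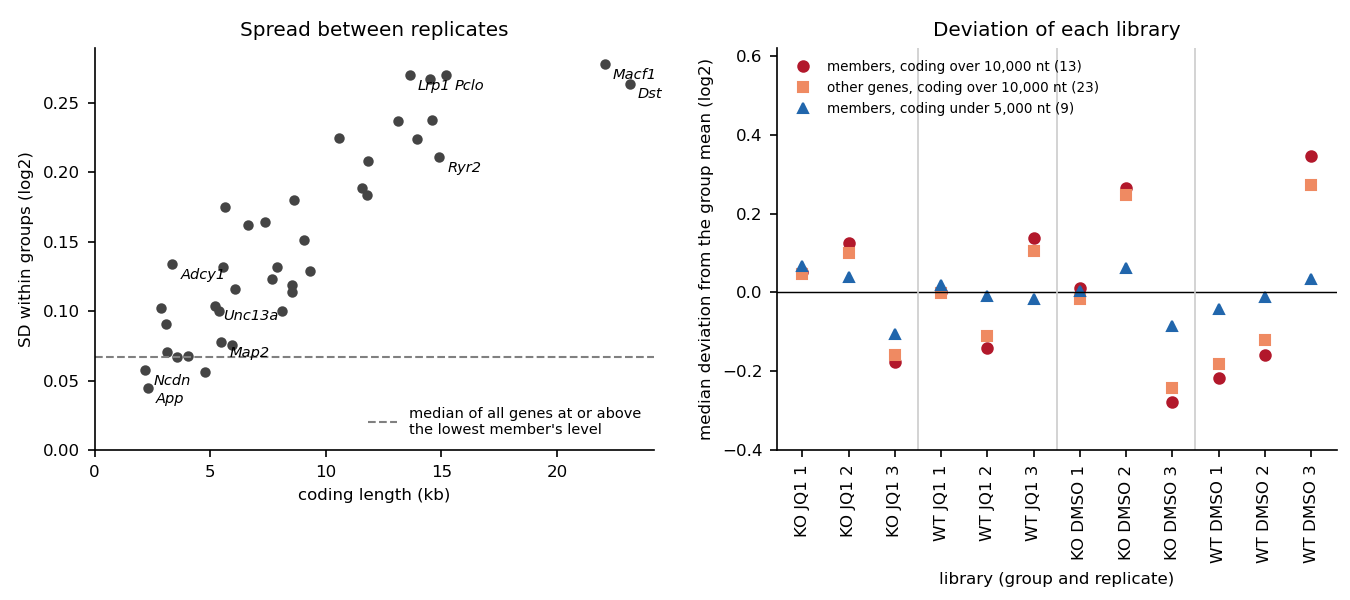
Left, SD of log2 levels within groups (y axis) against coding length in kb (x axis) for the 39 members, with a dashed line at the median of all genes at such levels. Right, median deviation of each library (x axis) from its group mean (y axis, log2) for the 13 members over 10000 nt (circles), 23 other genes over 10000 nt (squares) and the 9 members under 5000 nt (triangles). The spread rises with length, and WT DMSO replicate 3 stands at 0.35 for the long members.

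Calls were also counted by length. In KO against WT in DMSO the 13 longest had a larger median log2 change than the other 26 (0.26 against 0.14), yet 2 of the 13 were called and 9 of the 26. The median of the 76 other tested genes with a coding length over 10000 nt was 0.076, with 5 called higher and 2 lower. These were not matched to the members in level: 23 of them reached the mean level of the lowest member. With each library corrected for its own trend over mRNA length, an alternative chosen after seeing the data, 17 members were called higher in KO in DMSO and 12 in JQ1, and 0 lower in either, where 10.9% of genes were higher in DMSO and 7.51% in JQ1. Those it added in DMSO were Nav1, Ank2, Dync1h1, Dock4, Nisch and Trrap, at log2 changes of 0.16 to 0.39. Over all genes, the straight-line slope per doubling of mRNA length was 0.0496 in WT JQ1 replicate 2 and -0.0225 in WT JQ1 replicate 3. The 13 longest members deviated the other way there, which the correction does not address. In KO JQ1 replicate 3, KO DMSO replicates 2 and 3 and WT DMSO replicate 3, slope and deviation had the same sign.

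Compared per length, in CPM per 1000 nt of mRNA, the members' levels in DMSO differed widely. The highest were Map2, at 260.0 in KO DMSO and 266 in WT DMSO, Map1b, at 273 in KO DMSO and 254 in WT DMSO, and Kif1a, at 266 in KO DMSO and 215 in WT DMSO. Agap2, Atp2a2, Kif5a, App and Ncdn followed, at 117 to 154 in KO DMSO and 113 to 129.8 in WT DMSO. Among the lowest were Ryr2, at 3.19 in KO DMSO and 2.25 in WT DMSO, Sorl1, at 6.62 in KO DMSO and 4.97 in WT DMSO, and Pclo, at 7.08 in KO DMSO and 5.87 in WT DMSO. Summed, the 39 mRNAs took 2.25, 2.25 and 1.97% of gene counts in KO JQ1, against 2.11, 2.07 and 2.09% in WT JQ1, and 2.12, 2.37 and 1.90% in KO DMSO, against 1.81, 1.86 and 2.15% in WT DMSO. The sum was lowest of its group in both KO replicate 3 libraries and highest in WT DMSO replicate 3.

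The promoters of App, Wnk1 and Ryr2, of which App and Wnk1 rose and Ryr2 fell in JQ1 in both genotypes, are shown from 250 bases before to 50 after the start of transcription (RefSeq, GRCm38.p6), with GGGCGG, the GC box, and its reverse complement CCGCCC in capitals.
App: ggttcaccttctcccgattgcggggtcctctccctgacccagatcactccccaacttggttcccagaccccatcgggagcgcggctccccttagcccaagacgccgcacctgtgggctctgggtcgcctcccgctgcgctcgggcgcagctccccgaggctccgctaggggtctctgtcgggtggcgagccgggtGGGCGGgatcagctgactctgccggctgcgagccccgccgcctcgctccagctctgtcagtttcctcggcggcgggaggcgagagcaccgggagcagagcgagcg
Wnk1: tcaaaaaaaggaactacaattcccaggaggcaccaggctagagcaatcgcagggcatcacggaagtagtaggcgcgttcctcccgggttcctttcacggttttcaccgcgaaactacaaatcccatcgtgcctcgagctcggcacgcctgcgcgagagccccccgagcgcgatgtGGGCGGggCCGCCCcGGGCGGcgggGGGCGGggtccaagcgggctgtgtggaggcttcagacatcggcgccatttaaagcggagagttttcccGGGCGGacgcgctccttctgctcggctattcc
Ryr2: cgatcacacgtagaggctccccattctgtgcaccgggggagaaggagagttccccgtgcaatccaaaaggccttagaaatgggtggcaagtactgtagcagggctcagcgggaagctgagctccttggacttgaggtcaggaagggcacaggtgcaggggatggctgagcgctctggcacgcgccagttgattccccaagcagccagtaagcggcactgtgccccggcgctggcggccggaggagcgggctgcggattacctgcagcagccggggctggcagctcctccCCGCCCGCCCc
They lie at chr16:85173658-85173957, chr6:120038606-120038905 and chr13:12106896-12107195, all on the minus strand. The GC content is 71.0% for App, 63.7% for Wnk1 and 65.3% for Ryr2, with 30, 32 and 18 CpG. Each of the 3 holds a GC box. RefSeq promoters were matched for 33 of the 39 members, 47 in all. Their median GC content was 64.3%, against 52.7% over 32851 mouse promoters, and the median number of CpG 27 against 7. A GC box on either strand was present in 30 of the 47, in 28 of 33 genes, against 35.7% of all promoters. TATAAA was present in 3 of 47, against 13.6%. These are matches of letters and not sites. The 32851 promoters belong to 27025 genes and were not limited to the genes tested here. The differences from them are therefore not shown to be particular to the members.

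The same fit was read for 86 other genes of the members' families, among them further kinesins, ankyrins, spectrins, active zone proteins, HERC ligases, DOCK exchange factors and lipoprotein receptors. In KO against WT in DMSO 7.21% of all genes tested were higher and 7.76% lower by edgeR. The shares were 10.2% and 8.93% by DESeq2, and 0.0259% and 77.7% with spike-in scaling. Of the 86, 11 were higher and 6 lower by edgeR (20 and 6 by DESeq2, and 0 and 67 with spike-in scaling). Their median log2 change was 0.065, against 0.21 in the 39 members. Among those higher were the calcium release channel Itpr1 (0.53 ± 0.086, edgeR adjusted p = 0.00222) and the calcium pump Atp2b2 (0.33 ± 0.064), the motor adaptor Mapk8ip2 (0.28 ± 0.048), the spectrin Sptbn1 (0.22 ± 0.063), the navigator Nav2 (0.43 ± 0.099), the active zone adaptor Ppfia3 (0.19 ± 0.054), Agap3 (0.25 ± 0.053) and Aplp2, a homologue of App (0.14 ± 0.041). Among those lower were the kinesin Kif5b (-0.29 ± 0.072), the microtubule protein Dcx (-0.24 ± 0.070), the ligases Ube3a (-0.29 ± 0.089) and Herc4 (-0.21 ± 0.061) and the Ras regulator Rasa1 (-0.24 ± 0.061). Kif5a was thus higher and Kif5b lower in KO. With 1 library left out, 5 to 22 of the 86 were higher and 0 to 4 lower. In JQ1 4.84% of all genes tested were higher in KO and 4.13% lower. Of the 86, 6 were higher and 3 lower. Among those higher were Itpr1 at 0.32 ± 0.086, Mapk8ip2 at 0.20 ± 0.048, Agap3 at 0.19 ± 0.053 and Aplp2 at 0.15 ± 0.041. Among those lower were Kif5b at -0.26 ± 0.072, Ube3a at -0.34 ± 0.089 and the kinase Wnk3 at -0.29 ± 0.082.

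Under JQ1, 27.7% of all genes tested were higher and 29.4% lower in KO, and 25.9% and 29.3% in WT. Of the 86, 24 were higher and 21 lower in KO, and 29 higher and 22 lower in WT. With spike-in scaling the counts were 0 and 3 in KO, and 0 and 27 in WT, where 8.51% and 37.7% of genes were lower. Aplp2 rose like App, by 0.77 in KO and 0.76 in WT, and Usp7 and Herc3 of the ubiquitin pathway by 0.40 in KO and 0.38 in WT and by 0.44 in KO and 0.36 in WT. The kinesin Kif3a rose by 0.29 in KO and 0.23 in WT, the dynein chain Dync1li2 by 0.27 in KO and 0.27 in WT, Agap3 by 0.33 in KO and 0.38 in WT, the splicing gene Srrm1 by 0.30 in KO and 0.29 in WT and Unc13b by 0.55 in KO and 0.53 in WT. The spectraplakin relative Plec had log2 changes of -1.14 in KO and -0.96 in WT and the phosphodiesterase Pde4b of -0.66 in KO and -0.77 in WT. Ryr1 had -1.41 in KO and -1.75 in WT, at means of 1.22 CPM in KO JQ1, against 3.23 CPM in KO DMSO, and 1.01 CPM in WT JQ1, against 3.54 CPM in WT DMSO. Rimbp2 of the active zone stood at -0.62 in KO and -0.63 in WT, Dock9 at -0.42 in KO and -0.43 in WT, Stmn2, a tubulin-binding protein, at -0.15 in KO and -0.20 in WT, and the acetyltransferase Kat2a at -0.18 in KO and -0.16 in WT. All of these were called in both genotypes by edgeR's quasi-likelihood test. Map6 was called lower in KO (-0.11) and Dcx in WT (-0.19). Ryr1 and Pde4b, named for their small adjusted p, thus fell as Ryr2 and Pde2a did. Of the 14 relatives in that signalling role, 3 were higher and 6 lower in KO, and 4 higher and 5 lower in WT.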

How the data were processed

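Reads were aligned with TopHat2 2.1.0 and SAMtools 0.1.19 to the mouse build mm9 and counted per gene with HTSeq 0.6.1, per the submitters' processing notes; the sources used here give neither annotation nor strand setting. The authors deposited raw read counts of 37310 genes and 92 ERCC spike-in RNAs in 12 libraries. Their deposited DESeq2 table of WT and KO holds a mean of scaled counts (a signal), a log2 fold change with its standard error, a test score, and p-values from a model that they do not state.

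From the counts, 15433 genes passed edgeR's filterByExpr (minimum count 10). They were fitted with edgeR 4.0.16 in R 4.3.3 (TMM, 1 mean per group, quasi-likelihood F test, Benjamini-Hochberg adjustment over all genes tested). The same fit was run on counts simulated from the means and dispersions of these data, with 200 genes changed per comparison. It recovered 35.8 to 56.7% of the 1.25-fold changes and 80.3 to 98.5% of the 2-fold changes. The 12 libraries left 8 residual degrees of freedom, and the biological coefficient of variation was 6.69%. Replicates of a group differed beyond sampling noise, at chi-square values of 4.77 to 40.9 per degree of freedom. The alternatives were other size factors, spike-in scaling, no filter, DESeq2 1.42.0, fewer groups in the fit, each library left out, both KO replicate 3 libraries left out, replicate blocks and a length correction.

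All members are named, with values in every library for up to 6 called members per direction and comparison; of their relatives, up to 2 called genes per role and comparison are. The members and lists were chosen with earlier results of these data known. Lengths, coordinates and sequences come from GRCm38 (GENCODE and RefSeq annotation) and were matched by name, since the counts are on mm9. The exons of 19 members overlap another annotated gene, 6 of them a protein-coding one (Herc1, Map1a, Mapk8ip3, Pde2a, Srrm2 and Unc13a). Deviations from the group mean correlated between JQ1 and DMSO libraries of the same number, with r of 0.212 to 0.287 in KO. The main fit did not pair libraries. Pairs entered only through the culture block, an alternative fit run in KO and in WT. The sources used here do not state such pairs. In WT r was 0.0941 to 0.158, and not every pair passed 0.1.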

Additional observations from a re-analysis of the deposited data

How the results depend on the processing

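Size factors in place of TMM left each of the 10 counts of members at its value. With spike-in scaling the members called higher were 0 in KO against WT in DMSO (14 lower), 0 in KO against WT in JQ1, 0 in JQ1 against DMSO in KO (0 lower) and 0 in WT (2 lower). The share of all genes called lower was 77.7%, 0.117%, 8.51% and 37.7%, in that order. That scaling shifts all genes, and the 36 members positive in KO against WT in DMSO all became negative, as did the 33 positive in JQ1 against DMSO in WT. The 22 of them that were called in DMSO under either scaling stood at: Map1a (-0.38), Apc (-0.75), Kif1a (-0.47), Kif5a (-0.58), Myo5a (-0.74), Mapk8ip3 (-0.58), Unc13a (-0.46), Nf1 (-0.65), Agap2 (-0.80), Dock3 (-0.67), Dock4 (-0.66), Trio (-0.68), Adcy1 (-0.73), Pde2a (-0.65), Atp2a2 (-0.78), Ryr2 (-0.23), Nisch (-0.66), Ncdn (-0.56), App (-0.65), Lrp1 (-0.15), Sorl1 (-0.33) and Srrm2 (-0.54). The 13 that were called higher in JQ1 in WT stood at: Map1a (-0.15), Map1b (-0.33), Kif1a (-0.40), Kif5a (-0.39), Mapk8ip3 (-0.38), Usp9x (-0.35), Agap2 (-0.40), Atp2a2 (-0.43), Wnk1 (-0.071), Ncdn (-0.39), App (-0.17), Srrm2 (-0.27) and Trrap (-0.071). In KO against WT in JQ1 the count of 4 (4.84% of genes higher) became 9 with no filter (3.31%), 8 with DESeq2 (8.31%), 8 with the replicate number as a block (6.26%), 11 without both KO replicate 3 libraries (7.84%) and 12 with the length correction (7.51%), and in DMSO the length correction gave 17 (10.9%). Members lower in JQ1 in KO became 6 with no filter (20.1% of genes lower), with the culture block (31.8%) and with the length correction (30.8%). With 1 library left out, the count higher was 2 to 18 in KO against WT in DMSO, 0 to 8 in KO against WT in JQ1, 7 to 14 in JQ1 against DMSO in KO (2 to 6 lower) and 10 to 19 in WT; the cause of these differences was not tested. In WT the culture as a block gave 20 members higher and 2 lower (28.8% and 31.4% of genes). There, as in KO, same-numbered JQ1 and DMSO libraries correlated best with each other in 3 of 3 numbers, a hint from the data, not the design. Between genotypes r of same-numbered libraries was -0.016 to 0.116 in JQ1 and -0.18 to 0.0112 in DMSO, so the samples share only a number there, and the number as a block gave 12 in DMSO. The difference of the JQ1 responses had 0 calls under every alternative run. The lowest count of a member in a library was 614, so the 3 libraries per group limit the precision more than counting error does.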
